A study of Sus scrofa with 16 samples.

Results

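The genes described here encode the nuclear subunits of the mitochondrial respiratory chain and of ATP synthase. They were taken as every probe set of the porcine array whose single gene symbol began with NDUF, UQCR, COX4, COX5, COX6, COX7, COX8 or ATP5, or was CYC1 or CYCS. The rule used names only and no measured value. It found 75 probe sets of the 24123 on the array, which stood for 60 genes: 32 of complex I, 3 assembly factors of complex I, 2 of complex III, cytochrome c, 8 of complex IV and 14 of ATP synthase (complex V). NDUFA4 was counted with complex IV, to which its protein is now assigned. ATP5S was counted with ATP synthase by its symbol, not as an established subunit. No probe set with CYC1, COX4I1, COX6A2 or COX6B1 as its single symbol was among the members, and 4 probe sets that carried a matching symbol beside others were left out.

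The arrays came from 8 Iberian pigs, a Mediterranean breed that lays down much fat, slaughtered at 211 days of age. Each animal gave 1 array of its diaphragm, the muscle of breathing, and 1 of its psoas major, a muscle that runs beside the lumbar spine, so that 16 arrays were read. Animals 1 and 4 were males on the high feeding level, animals 2 and 3 males under 20% restriction, animals 6 and 7 females on the high level, and animals 5 and 8 females under restriction. All ate the same pelleted diet before the restriction, and neither the castration status of the males nor the start of the restriction is given in the sources used here.

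The respiratory chain passes electrons from NADH, through complex I, and from succinate, through complex II, to ubiquinone, then through complex III to cytochrome c and through complex IV to oxygen. Complexes I, III and IV pump protons across the inner mitochondrial membrane, and ATP synthase uses their return to make ATP. In skeletal muscle these proteins are abundant in slow and in fast oxidative fibres and scarcer in fast glycolytic fibres, and some subunits exist in a heart or muscle form and a form found in most tissues.

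Values are log2 expression, so that a difference of 1 is a doubling of the measured level. Of the 75 member probe sets, 68 were tested, and each of the 60 genes kept at least 1. The 68 lay at or above the floor of 4 on all 16 arrays, so that the floor selected none of them through 1 group. The other 7 were further probe sets of NDUFA1, NDUFS6, NDUFV2, NDUFAF2, COX7C, ATP5I and ATP5J. A gene with several tested probe sets is given by the one with the highest mean. A probe set was called at a limma adjusted p under 0.05 over all 11467 tested probe sets.

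Array medians lay between 3.56 and 3.62. The psoas array of animal 7 stood apart in these genes: its mean over the 60 genes was 11.43, whereas the other psoas arrays lay between 11.64 and 11.82 and the diaphragm arrays between 11.67 and 11.95. The main counts and medians are given with and without its animal. The actin 3′ minus 5′ difference, a sign of RNA degradation that rises with loss of 5′ ends, was 3.81 ± 0.45 in diaphragm and 3.45 ± 0.25 in psoas (mean ± SD, n = 8 arrays each). It was between 4.07 and 4.33 in the diaphragms of animals 1, 2, 3 and 5 and between 3.35 and 3.49 in those of animals 4, 6, 7 and 8. Among the psoas arrays it was highest in animal 7, at 3.85, with the others between 3.07 and 3.71. Whether this bears on the low values of that array was not tested. The labels name no batch. For feeding, sex and the muscle difference by feeding, p-values measure the spread between these 8 animals. The main muscle comparison treated the 16 arrays as independent and did not use their pairing by animal. Its p-values therefore measure the spread between arrays, not that of the differences within animals.

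The first question of the design was how the muscles differ. Most members were slightly lower in psoas than in diaphragm, and few passed the test. Of the 68 probe sets, 8 fell, none rose and 60 were not called. The 8 were COX6A1, COX6C and COX5B of complex IV, NDUFS1, NDUFS7, NDUFS5 and NDUFA1 of complex I, and ATP5F1 of ATP synthase, with differences from -0.18 to -0.45, or 1.13-fold to 1.37-fold higher levels in diaphragm.

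This was 11.8% of the members, where 27.0% of all tested probe sets were called between the muscles, 12.4% lower and 14.6% higher in psoas. The share of members that fell thus lay close to the background, while no member was among those that rose. The median difference over the 68 was -0.09, against 0.02 over all tested probe sets, and 52 of 68 (76.5%) lay below 0, against 47.4%. Their differences were small: the median size was 0.13, against 0.20 over all tested probe sets, and 19 members (27.9%, against 39.7%) had an unadjusted p under 0.05. Over all tested probe sets the size fell with level, and 10352 of them but 14 members had a mean below 10. The median size was 0.14 in members against 0.20 in all below 10, and 0.11 against 0.18 from 10 to 13. At 13 and above it was larger in the 17 members, 0.15 against 0.13. In bulk tissue, fewer fibres of a type and less RNA per fibre cannot be told apart.

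**Figure D1:**
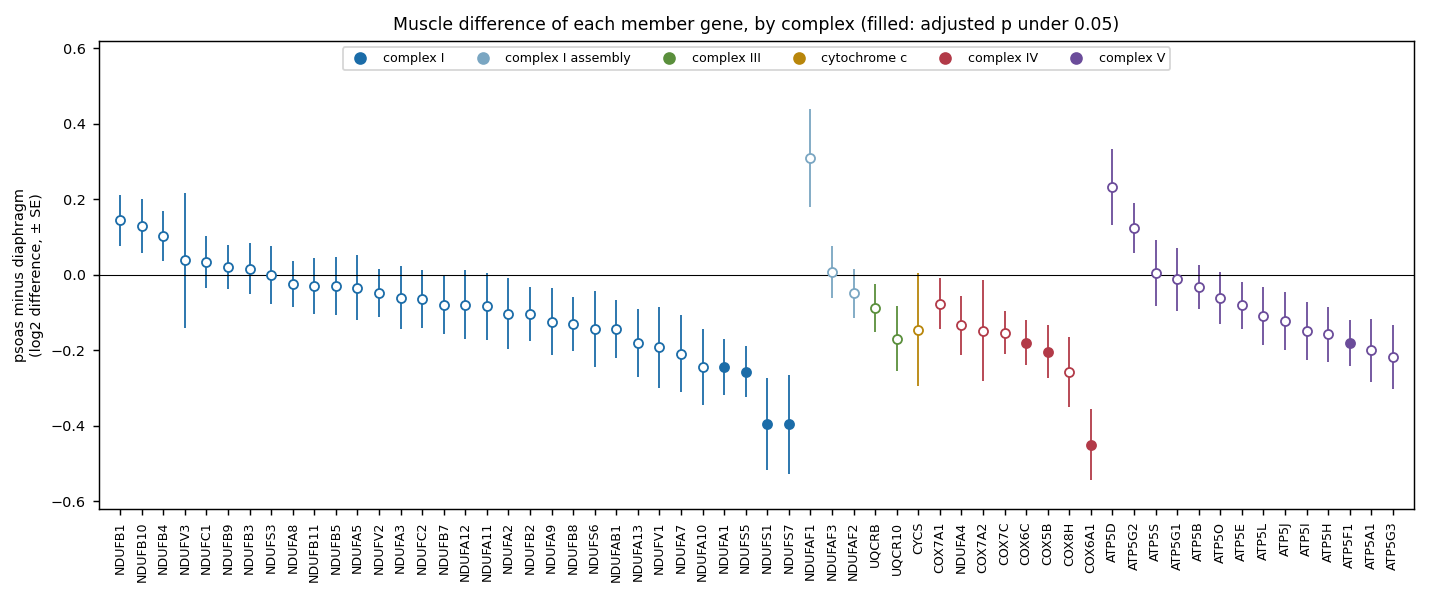
Psoas minus diaphragm difference (log2, ± SE) of each of the 60 member genes, grouped by complex, with filled points for genes called at an adjusted p under 0.05. The 8 filled points all lie below 0, 48 of the 60 genes lie below 0, and NDUFAF1 and ATP5D lie highest.

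Complex I takes electrons from NADH. Of its 32 genes 4 fell, 28 were not called, and 25 lay below 0, with a median of -0.08. The mean over the 32 was 11.60 ± 0.10 in diaphragm and 11.51 ± 0.13 in psoas (log2, mean ± SD, n = 8 arrays each), and the range in psoas overlapped that in diaphragm.

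The core subunits that carry iron-sulfur clusters and were called, NDUFS1 and NDUFS7, showed the largest differences in complex I. NDUFS1, the largest subunit, which holds several of the clusters, read 11.72 at the lowest, 11.99 at the median and 12.13 at the highest in diaphragm and 10.84, 11.67 and 11.86 in psoas. The difference was -0.39 ± 0.12 (SE, adjusted p = 0.026), and it was negative in 7 of 8 animals, animal 6 being the exception. NDUFS7, whose cluster hands electrons to ubiquinone, read 11.35, 11.53 and 11.66 in diaphragm and 10.51, 11.22 and 11.58 in psoas. Its difference of -0.40 ± 0.13 (adjusted p = 0.037) was again negative in 7 of 8 animals, with animal 6 at 0.23. In both genes the psoas array of animal 7 was the lowest, at -0.99 and -0.96 against that animal's own diaphragm, and without animal 7 both differences were -0.31 (adjusted p = 0.029 and 0.046). The muscles overlapped in both.

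The other members that fell in complex I are small accessory subunits that hold no redox centre. NDUFS5 read 11.12 at the lowest, 11.31 at the median and 11.43 at the highest in diaphragm and 10.89, 11.02 and 11.22 in psoas, a difference of -0.26 ± 0.07 (adjusted p = 0.013). NDUFA1, needed to build the membrane arm, read 12.81, 12.92 and 13.03 in diaphragm and 12.42, 12.62 and 12.84 in psoas, a difference of -0.24 ± 0.07 (adjusted p = 0.024). Both were lower in psoas in 7 of 8 animals, and in both animal 5 was the exception, at 0.01 and 0.02. The ranges of the muscles overlapped in both genes.

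No other gene of complex I passed. NDUFV1, which binds NADH, stood at -0.19 ± 0.11 (adjusted p = 0.20), and NDUFV2, its neighbour, at -0.05 ± 0.06 (adjusted p = 0.61). NDUFA10 was at -0.24 ± 0.10 (adjusted p = 0.084). On the other side of 0, NDUFB1, NDUFB10 and NDUFB4, accessory subunits of the membrane arm, were at 0.14, 0.13 and 0.10, with adjusted p of 0.12, 0.19 and 0.26. The sign was not the same for every probe set of a gene: NDUFB3 gave 0.02 by the probe set with the higher mean and -0.20 (adjusted p = 0.066) by the other. The 3 probe sets of NDUFS3 lay between -0.0010 and 0.13, none of them called.

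Of the 3 assembly factors, which help to build complex I and are not part of it, none was called. NDUFAF1 stood at 0.31 ± 0.13 (adjusted p = 0.089), higher in psoas in 7 of 8 animals, and its second probe set at 0.24 ± 0.15. NDUFAF2 and NDUFAF3 stood at -0.05 ± 0.07 and 0.01 ± 0.07.

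Complex III was represented by UQCRB and UQCR10, small subunits without redox centres. UQCR10 was at -0.17 ± 0.09 (adjusted p = 0.16) and UQCRB at -0.09 ± 0.06 (adjusted p = 0.33), both lower in psoas in 6 of 8 animals. CYCS, the soluble electron carrier cytochrome c, ranged from 12.68 to 13.64 in diaphragm and from 12.53 to 13.77 in psoas. Its difference of -0.15 ± 0.15 (adjusted p = 0.50) was negative in 7 of 8 animals but small beside its spread between animals.

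Complex IV, cytochrome c oxidase, passes electrons to oxygen. All 8 of its genes lay below 0 between the muscles, 3 fell, and the median was -0.17. The mean over its genes was 12.60 ± 0.11 in diaphragm and 12.40 ± 0.12 in psoas (log2, mean ± SD, n = 8 arrays each). Within animals the median over its genes was negative in all 8, from -0.30 in animal 7 to -0.01 in animal 5.

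COX6A1, the form of subunit 6A found in most tissues, had the largest difference and the smallest adjusted p of all members. It read 8.52 at the lowest, 8.88 at the median and 9.14 at the highest in diaphragm and 8.18, 8.41 and 8.78 in psoas. Its difference was -0.45 ± 0.09 (SE, adjusted p = 0.0030), a level 1.37-fold higher in diaphragm, and it was negative in 8 of 8 animals, from -0.08 in animal 5 to -0.96 in animal 7. Without animal 7 it was -0.38 (adjusted p = 0.010). The muscles overlapped only through the psoas of animal 1, which lay above the diaphragms of animals 2, 5, 6 and 8.

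COX6C read 13.75, 13.88 and 13.96 in diaphragm and 13.56, 13.69 and 13.84 in psoas, a difference of -0.18 ± 0.06 (adjusted p = 0.037) with the same sign in 8 of 8 animals. COX5B, the zinc-binding subunit, read 13.48, 13.62 and 13.95 in diaphragm and 13.32, 13.46 and 13.67 in psoas. It stood at -0.20 ± 0.07 (adjusted p = 0.045), with animal 5 at 0.06. COX7C also had the same sign in 8 of 8 animals, at -0.15 ± 0.06, and did not pass (adjusted p = 0.057).

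No tissue form of a complex IV subunit other than COX6A1 passed. COX7A1, the heart and muscle form of subunit 7A, was at -0.08 ± 0.07 (adjusted p = 0.43), and COX7A2, the general form, at -0.15 ± 0.13 (adjusted p = 0.44). The heart form of subunit 8, COX8H, was at -0.26 ± 0.09 (adjusted p = 0.052), lower in psoas in 7 of 8 animals. NDUFA4 was at -0.13 ± 0.08 (adjusted p = 0.21). The difference between the forms of a subunit was not tested.

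**Figure D2:**
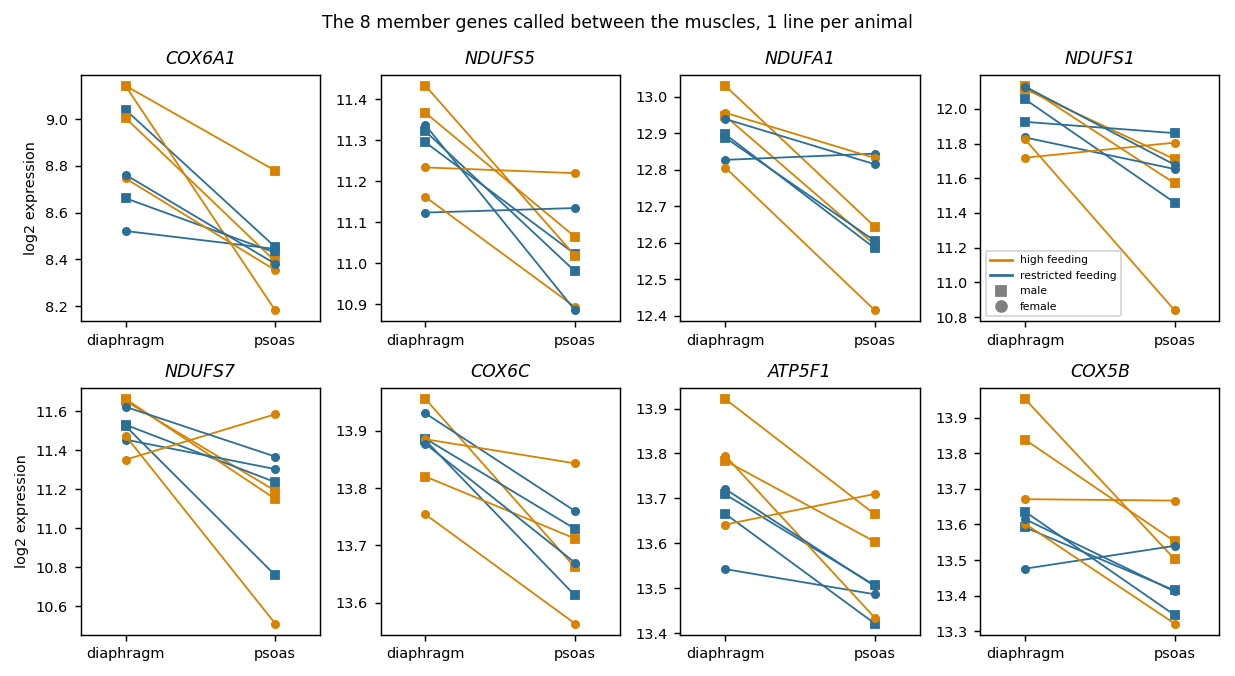
Log2 expression of the 8 genes called between the muscles in the diaphragm and psoas of each animal, 1 line per animal, coloured by feeding level (orange high, blue restricted), with squares for males and circles for females. Lines fall from diaphragm to psoas in 8 of 8 animals for COX6A1 and COX6C and in 7 of 8 for the other genes. Animal 7 falls furthest in NDUFS1, NDUFS7 and COX6A1, and by a narrow margin in NDUFA1.

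ATP synthase has a catalytic head, a rotor and a peripheral stalk that holds the head still. Of its 14 genes 1 fell, 13 were not called, and 11 lay below 0, with a median of -0.09. ATP5F1, subunit b of the peripheral stalk, read 13.54 at the lowest, 13.72 at the median and 13.92 at the highest in diaphragm and 13.42, 13.51 and 13.71 in psoas. Its difference was -0.18 ± 0.06 (adjusted p = 0.042), negative in 7 of 8 animals with animal 6 at 0.07. Of the head, ATP5A1 stood at -0.20 ± 0.08 (adjusted p = 0.088) and the catalytic subunit ATP5B at -0.03 ± 0.06 (adjusted p = 0.70). ATP5D, the delta subunit of the central stalk, stood at 0.23 ± 0.10 (adjusted p = 0.10), higher in psoas in 6 of 8 animals.

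ATP5G1, ATP5G2 and ATP5G3 encode the same mature subunit c, which forms the ring of the rotor. They gave -0.01 ± 0.08, 0.12 ± 0.07 and -0.22 ± 0.09, with adjusted p of 0.93, 0.17 and 0.070. ATP5G3 was lower in psoas in 8 of 8 animals, from -0.05 in animal 5 to -0.62 in animal 7, and ATP5G2 was lower in 2 of 8. Whether the forms differ from each other was not tested.

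The sign was also counted animal by animal. Of the 68 members, 4 (COX6A1, COX6C, COX7C and ATP5G3) were lower in psoas in 8 of 8 animals and none was higher in all, where 9.71% of all tested probe sets were lower and 11.7% higher in 8 of 8. In no member did all diaphragm arrays lie above all psoas arrays or the reverse, where 1.63% and 2.08% of all tested probe sets were separated in these directions. The animals themselves differed: the median over the 60 genes was -0.17, -0.04, -0.12 and -0.17 in the males 1 to 4, and 0.08, 0.07, -0.27 and -0.15 in the females 5 to 8. In animals 5 and 6 only 17 of 60 genes were lower in psoas, whereas in the other animals 40 to 53 were. Animal 5 was under restriction and animal 6 on the high level.

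The animals pair the arrays, and with the animal as a block 13 members were called, 11 lower and 2 higher in psoas, among 33.5% of all tested probe sets called either way and 17.7% called higher. Under the block COX5B (adjusted p = 0.051) and ATP5F1 (0.056) no longer passed. COX8H (0.035), ATP5G3 (0.047), NDUFA10 (0.041) and probe sets of NDUFB3 (0.045) and ATP5L (0.026) passed as lower, and NDUFAF1 (0.042) and ATP5D (0.049) as higher. COX6A1 and NDUFS5 were called whichever animal was left out, with adjusted p up to 0.014 and 0.045.

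Each other call rested on some animals. NDUFS1 did not pass without animal 3 or 4, NDUFA1 without any 1 of animals 1 to 4, NDUFS7 and COX6C without any 1 of animals 1 to 5 or 8, COX5B without any 1 of animals 1 to 4, 7 or 8, and ATP5F1 without any animal other than 6. In number, 2 members were called without animal 3, 3 without animal 1, 2 or 4, 5 without animal 5, and 6 without animal 7, where the median over members was -0.07. Without animal 8 also 6 were called, among them NDUFAF1 as higher in psoas (0.34, limma adjusted p = 0.047). Without animal 6 every call of the main fit stayed, and COX8H and NDUFA10 were called as lower besides. The shares of all tested probe sets called in these fits are not given here. These counts therefore do not tell a change particular to the members from one that all probe sets share. Among animals 4, 6, 7 and 8, whose diaphragms were alike in the actin measure, none was called and 3.53% of all tested probe sets were, with a median of -0.13 over the members. Their psoas arrays were less alike in it, at 3.56, 3.42, 3.85 and 3.07, so that the muscles were not matched in RNA quality. Animal 4 was the only male and animal 8 the only restricted one among them. With the actin difference as a covariate 8 members were called, and NDUFS6 and NDUFA10 took the places of COX6C and COX5B.

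**Figure D3:**
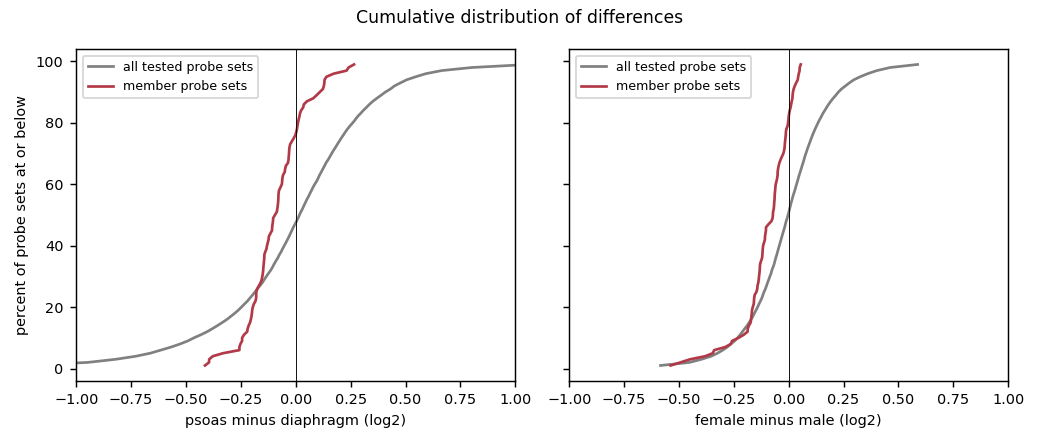
Share of probe sets (percent) at or below each log2 difference, for psoas minus diaphragm (left) and female minus male (right), over the 68 tested members (red) and all 11467 tested probe sets (grey). In both panels the red curve crosses 0 further up, since 76.5% and 80.9% of members lie below 0, against 47.4% and 50.7% of all. It is steeper than the grey curve for muscle and, for sex, in its upper part. The lower tail for sex reaches about as far in both, with 5 percent at or below -0.35 in members and -0.32 in all.

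Of the 54 tested genes on the lists of other pathway genes, 8 (14.8%) were called between the muscles, 4 lower and 4 higher in psoas, where 27.0% of all tested probe sets were. Complex II, which feeds electrons from succinate, had 4 tested genes, 1 called lower and none higher: its flavoprotein SDHA fell, at -0.33 ± 0.08 (adjusted p = 0.0064), and all 4 lay below 0. Of 4 genes of other electron entry 1 fell, ETFA (-0.27), which takes electrons from fatty acid oxidation. Of 9 carriers and energy transfer genes 1 fell, VDAC3 (-0.37), a channel of the outer membrane. Of 13 assembly factors outside the rule for members 1 rose, TMEM126B (0.39), which acts in the assembly of complex I.

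Of 13 import and structure genes 2 rose, TIMM8B (0.38) and TIMM17B (0.35), parts of the import machinery. Regulators of mitochondrial genes had 7 tested members, with TFB1M higher (0.49) and the deacetylase SIRT3 lower (-0.72). PPARGC1A, the coactivator that drives mitochondrial genes, was at 0.15 ± 0.19 and was not called. Ubiquinone synthesis had 4 tested genes and none called. None of the 13 mitochondrially encoded subunits was named by a single symbol on the array.

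Markers of fibre types and of other cells also differed between the muscles. Of 9 slow fibre genes 6 fell in psoas, and of 6 fast fibre genes 4 rose, among them MYH2 (2.74), the myosin of fast oxidative fibres. The summed fast fibre level ranged from 16.61 to 16.89 in diaphragm and from 17.18 to 17.43 in psoas, and the slow fibre level from 17.45 to 17.55 and from 17.01 to 17.54. The genes listed as skeletal muscle markers ranged from 16.50 to 16.65 in diaphragm and from 16.55 to 16.75 in psoas, with 1 of 4, TNNT3, called higher. TNNT3 and MYLPF of this list are also on the fast fibre list, so that the call of TNNT3 is counted in both. DES and CKM stood at 0.03 and -0.0038.

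All 7 tested endothelial genes fell in psoas, and their summed level ranged from 10.72 to 11.30 in diaphragm and from 9.98 to 10.59 in psoas. Of the immune genes 4 of 6 fell, of the fibroblast and matrix genes 4 of 6 fell and 1 rose, of the adipocyte genes 2 of 3 fell, and of the smooth muscle genes 1 of 4 fell and 1 rose. The 7 hepatocyte genes were called lower, but 6 of them, as also 1 adipocyte and 1 fibroblast and matrix gene, reached the floor of 4 in fewer than 4 psoas arrays and were tested through diaphragm, so that their count is no support. ALB, one of the 6, was at 7.73 ± 1.80 in diaphragm and 2.96 ± 0.49 in psoas, and the mean of APOA1, the remaining one, lay above the floor in both muscles, with a difference of -0.93. The 2 erythrocyte genes were not called and no mesothelial gene was tested. The part of fibre type, other cells and RNA quality in the differences of the respiratory genes was not tested.

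The second question was the effect of feeding. Feed restriction left no member called, and the median difference was close to 0. With restricted minus high over animal means, 0 of 68 members were called by limma, where 0 of all 11467 tested probe sets (0%) were. At an unadjusted p under 0.05 stood 4 members and 1451 of all probe sets. The median over members was -0.03, against -0.02 over all, with a median SE of 0.10.

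Within diaphragm the members lay lower under restriction without passing. The median was -0.08 and 49 of 68 lay below 0 (72.1%, against 53.0% of all tested probe sets). None was called, nor any probe set (0%), and 1 member and 1101 of all had an unadjusted p under 0.05. In psoas the median was 0.01, 32 of 68 lay below 0, 0 were called (0% of all), and 1 member and 1291 of all had an unadjusted p under 0.05. These medians moved with single animals. Over animal means the median was -0.09 without animal 7 and -0.00017 without animal 6, and in psoas it was -0.09 without animal 7, -0.04 without animal 5 and 0.07 without animal 6. In diaphragm it lay between -0.06 and -0.12 whichever animal was left out. The mean over the 60 genes was 11.83 ± 0.10 in diaphragm at high feeding, 11.74 ± 0.05 in diaphragm under restriction, 11.70 ± 0.18 in psoas at high feeding and 11.69 ± 0.05 in psoas under restriction (mean ± SD, n = 4 animals each). The actin difference was 3.62 ± 0.44 in the diaphragms at high feeding and 3.996 ± 0.43 in those under restriction. With it as a covariate in the fit of each probe set no member was called for feeding, and the median was -0.07 in diaphragm and -0.04 in psoas, where it turned from 0.01.

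**Figure D4:**
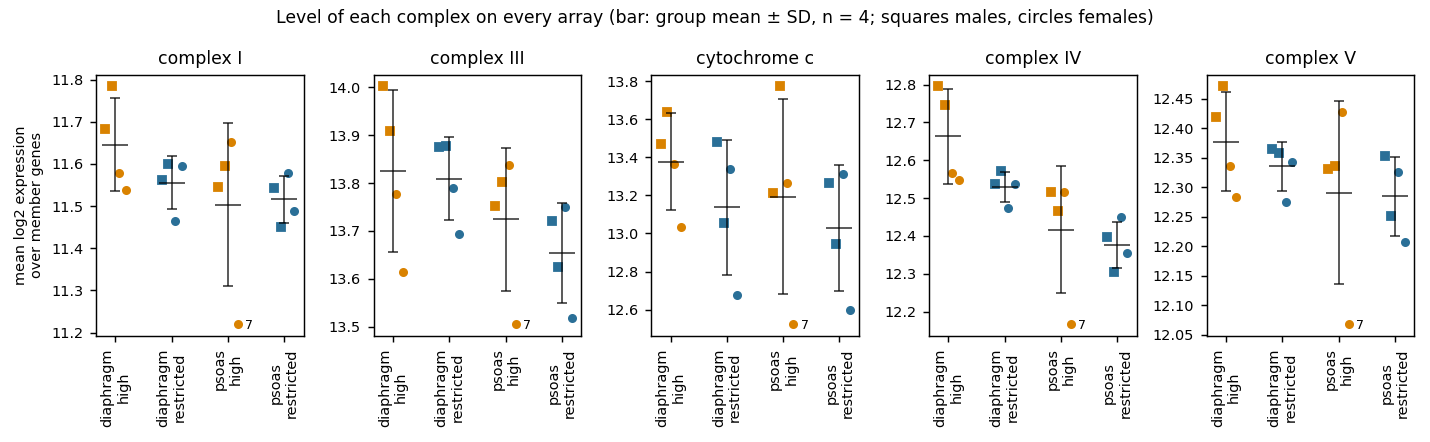
Mean log2 expression over the genes of each complex on every array, by muscle and feeding level (orange high, blue restricted; squares males, circles females; bars are group mean ± SD, n = 4). The psoas array of animal 7, marked, is the lowest of its group in each panel, and complex IV is lower in psoas at both feeding levels, with diaphragm means of 12.66 and 12.53 and psoas means of 12.42 and 12.38.

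COX7A2, the general form of subunit 7A of complex IV, had the smallest unadjusted p for feeding among the genes. In diaphragm it read 11.55, 11.65, 10.91 and 10.94 in animals 1, 4, 6 and 7 at high feeding and 10.64, 10.73, 10.64 and 10.82 in animals 2, 3, 5 and 8 under restriction. In psoas the same animals read 11.60, 11.57, 10.76 and 10.31, then 10.59, 10.78, 10.69 and 10.41. The males at high feeding, animals 1 and 4, stood above every other array in both muscles, the rest lying between 10.31 and 10.94. The feeding groups did not overlap in diaphragm and did in psoas. In diaphragm all arrays at high feeding lay above all restricted ones in 2 of 68 members (2.94%), COX7A2 and NDUFS6, and in 2.69% of all tested probe sets, and the reverse held in 0 members and 2.19% of all.

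Over animal means the difference in COX7A2 was -0.50 ± 0.17 (unadjusted p = 0.018, adjusted p = 0.32). It was -0.55 ± 0.16 in diaphragm (adjusted p = 0.48) and -0.44 ± 0.21 in psoas (adjusted p = 0.48). With 2 animals in each combination of sex and feeding level, whether the feeding difference depends on sex was not tested. The muscle form, COX7A1, stood at -0.04 for feeding.

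The other genes of smallest p were NDUFAF3 at -0.20 ± 0.09 (adjusted p = 0.39), ATP5F1 at -0.12, COX5B at -0.13, NDUFB5 at -0.15, NDUFB10 at -0.12, ATP5D at -0.17 and COX6A1 at -0.13, with adjusted p from 0.54 to 0.61 for the last 6. All of these 8 genes, picked by their p, lay below 0. By gene, 68.3% of the 60 members lay below 0 for feeding, against 61.1% of all tested genes with 1 symbol. The medians were -0.04 and -0.05. In diaphragm the next after COX7A2 were NDUFB5 (-0.22), NDUFS6 (-0.24), ATP5G1 (-0.18), NDUFA10 (-0.22), COX5B (-0.19), COX6A1 (-0.26) and NDUFA2 (-0.21). The feeding groups of NDUFS6, an accessory subunit near the NADH site, did not overlap in diaphragm: it ranged from 7.64 to 8.05 at high feeding and from 7.53 to 7.63 under restriction. In psoas NDUFAF3 came first (-0.24), and NDUFA7, NDUFV3, COX8H and NDUFAF2 lay above 0, at 0.20, 0.24, 0.17 and 0.10, while ATP5L and ATP5F1 stood at -0.15 and -0.12.

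One probe set of NDUFS3, a core subunit of the arm that faces the matrix, went the other way and was chosen after its values were seen. This probe set, the middle of the gene's 3 by mean level, read 11.06, 11.20, 11.07 and 10.71 in the psoas of animals 1, 4, 6 and 7 at high feeding and 11.80, 11.57, 11.71 and 11.62 in that of animals 2, 3, 5 and 8 under restriction. It was the only member of 68 (1.47%) with all restricted arrays above all arrays at high feeding in psoas, where 2.42% of all tested probe sets were so, while 0 members and 2.56% of all showed the reverse. The difference was 0.67 ± 0.13 (unadjusted p = 0.00077, adjusted p = 0.31). In diaphragm it read between 11.19 and 11.44 at high feeding and between 11.18 and 11.41 under restriction, a difference of 0.03 ± 0.09. The test of the muscle difference by feeding gave 0.63 ± 0.15 (unadjusted p = 0.0029, adjusted p = 0.76).

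In the other probe sets of NDUFS3 the feeding groups overlapped in psoas. All 3 probe sets lay above 0 for feeding in psoas, from 0.02 to 0.67, and for the muscle difference by feeding, from 0.10 to 0.63. Over animal means the brightest stood at -0.03 and the dimmest at -0.05, against 0.35 for the middle one. What the 3 probe sets share or differ in on the transcript was not analysed here. NDUFV2 showed a like split, with 0.38 ± 0.16 (adjusted p = 0.38) by its dimmer probe set and -0.09 by the brighter. Of the 6 genes with several tested probe sets, 5 had probe sets of opposite sign for feeding, and none had a call.

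**Figure D5:**
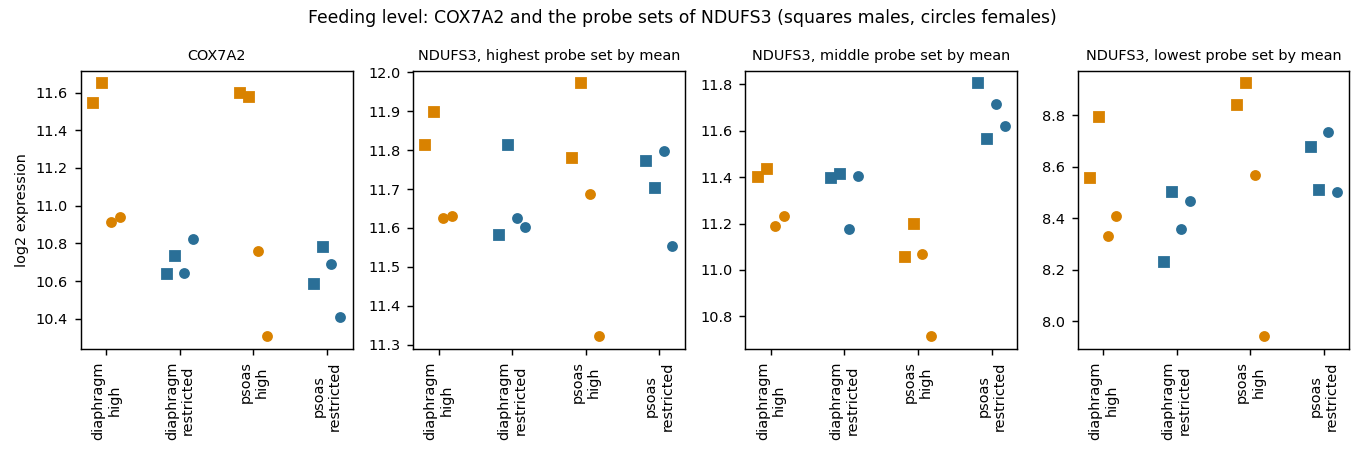
Log2 expression of COX7A2 and of the 3 probe sets of NDUFS3 on every array, by muscle and feeding level (orange high, blue restricted; squares males, circles females). In COX7A2 the males at high feeding stand at 11.55 to 11.65, above all other arrays, and in NDUFS3 the feeding groups separate in psoas for the probe set of middle mean level and overlap for the other probe sets.

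Whether the muscle difference depends on feeding was tested on each animal's own difference. None of the 68 members was called by limma (0% of all tested), and 1 member and 696 of all probe sets had an unadjusted p under 0.05. The median over members was 0.09, and 15 of 68 lay below 0 (22.1%), against -0.0096 and 51.9% over all tested probe sets. A positive value is a smaller gap under restriction for a gene that is lower in psoas and a larger gap for one whose value is higher there, such as ATP5D, which was not called. The median moved with single animals, to -0.0059 without animal 7, 0.03 without animal 5 and 0.16 without animal 6, and with the actin difference as a covariate it was -0.01. Per animal, the median over the 60 genes was -0.13 ± 0.14 at high feeding and -0.06 ± 0.10 under restriction (mean ± SD, n = 4 each). NDUFS6 (0.34), NDUFA7 (0.27), ATP5D (0.22), COX6A1 (0.26), ATP5G1 (0.20), NDUFB5 (0.15), UQCRB (-0.15) and NDUFA8 (0.14) had the smallest p among the genes.

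The third factor was sex. Members were mostly lower in females, and none was called. With female minus male over animal means, 0 of 68 were called by limma, where 0.183% of all tested probe sets were, and 6 members and 1051 of all had an unadjusted p under 0.05. The median was -0.07, against -0.0031 over all, and 55 of 68 (80.9%) lay below 0, against 50.7%. Without animal 7 the median was -0.02 and without animal 6 it was -0.12, both being females. Complex I had 28 of 32 genes below 0, ATP synthase 10 of 14, complex IV 5 of 8, complex III 2 of 2 and the assembly factors 1 of 3, and CYCS lay below 0. Of all tested genes with 1 symbol, 54.1% lay below 0.

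NDUFAF3, an assembly factor of complex I, had the smallest p for sex. Its animal means were 8.53 to 8.89 in the 4 males and 8.23 to 8.43 in the 4 females, and the difference was -0.35 ± 0.09 (unadjusted p = 0.0037, adjusted p = 0.26). In 7 of 68 members (10.3%) all males lay above all females, where 2.18% of all tested probe sets were so, and in none all females above all males (2.22%). These were probe sets of ATP5B, ATP5G3, ATP5L, NDUFAF3, NDUFB8 and UQCRB, of which none was called. This count was not repeated with an animal left out, animal 7 included. In ATP5G3, UQCRB and a probe set of ATP5L the psoas of animal 8, a female, lay far below the other restricted psoas arrays. ATP5L, subunit g of ATP synthase, was lower in females by all 3 probe sets, at -0.26, -0.58 and -0.52, with adjusted p of 0.48, 0.29 and 0.29. By its brightest probe set the males lay between 12.45 and 12.75 and the females between 12.15 and 12.44.

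COX7A2 stood at -0.45 (adjusted p = 0.49), with males from 10.61 to 11.61 and females from 10.62 to 10.84, so that the sexes overlapped. ATP5G3 was at -0.27 (adjusted p = 0.52), with males from 13.14 to 13.36 and females from 12.80 to 13.13. NDUFB10, NDUFS3, COX6A1 and NDUFB8 were at -0.19, -0.19, -0.17 and -0.16. None of these passed.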

How the data were processed

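The authors deposited log2 expression values, 1 per probe set and array, and the submitters' processing notes name GCRMA. Neither a version nor a joint run of the arrays is stated in the labels. GCRMA equalises the distributions of arrays processed together, which removes shifts shared by most genes, and levels near the upper end can be compressed (array maxima 15.7 to 15.9). No scaling was added. Gene symbols are those of GEO's platform annotation. All 75 member gene identifiers were in RefSeq and 0 symbols changed. No coordinates or sequences are given.

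Probe sets at log2 4 or more in at least 4 of 16 arrays, without control probe sets, were tested two-sided with limma 3.58.1 (lmFit, eBayes; R 4.3.3), with Benjamini-Hochberg adjustment over all 11467. Every adjusted p is limma's. Muscles were compared on 16 arrays with sex and feeding as covariates, feeding and sex on 8 animal means (the other factor as covariate), feeding within each muscle on 8 arrays, and the muscle difference by feeding on 8 differences. Fits were tested on simulated data. The number of arrays limits the precision.

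The labels' animal numbers pair the arrays. Over probe sets, residuals of an animal's arrays correlated at 0.199 to 0.281, above 0.1 in all 8 animals. Alternatives were the animal as a block, no filter, log2 6 or more in 8 arrays, median centring, quantile normalization, no covariates, an actin covariate and leaving out each animal.

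Named genes were those called, the 8 of smallest p for feeding and sex, tissue forms of subunits, genes whose probe sets disagree, and called genes of the pathway lists. COX8H was added to the tissue forms. The part of the rule on the highest and lowest member of each complex was not used, since levels of different probe sets are not comparable. The members, lists and tests were chosen with earlier results of these data known. Summed marker levels are log2 of the sum of linear values. Gene lists were complex II, assembly factors, ubiquinone synthesis, electron entry, carriers, regulators, import, mitochondrially encoded subunits and markers of muscle, slow and fast fibres and other cell types.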

Additional observations from a re-analysis of the deposited data

Results flagged for a closer look

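In groups of 4 arrays, 156 groups over 39 probe sets and complex means were examined for an array far from the other 3, and 10 were found, where chance gives about 1 in 20. All values are log2 expression.

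Among the diaphragms under restriction, animal 5 stood apart in 3 genes. COX6C was 13.93, with the others at 13.88 to 13.89. NDUFA10 was 10.13, with the others at 10.33 to 10.35. NDUFS3, by the middle of its 3 probe sets, was 11.18, with the others at 11.40 to 11.41. In the diaphragms at high feeding, the mean of the complex I assembly factors was 7.22 in animal 4 and 7.11 to 7.13 in the others.

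The psoas of animal 8 was the lowest under restriction in 3 genes. ATP5L was 12.02, with the others at 12.41 to 12.45. UQCRB was 14.00, with the others at 14.24 to 14.27. ATP5G3 was 12.76, with the others at 13.07 to 13.11.

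In psoas at high feeding, animal 7 was the lowest in NDUFA2, at 10.86 against 11.31 to 11.41, and in the mean over complex IV, at 12.17 against 12.47 to 12.52. Animal 6 was the highest in COX8H, at 13.42 against 12.82 to 12.92.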

How the results depend on the processing

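The count of 8 members called between the muscles was 13 with the animal as a replicate block, 5 with arrays centred on their median, 0 in animals 4, 6, 7 and 8 alone (an alternative added after the data were seen), and 2 to 10 when 1 animal was left out. It was 7 without a filter, 11 with the stricter filter, 9 with quantile normalization, 6 without covariates and 8 with the actin covariate. Shares of all tested probe sets called are given above only for the main fit, the block and animals 4, 6, 7 and 8. For the rest, the counts do not show whether members changed more than other probe sets. Fewer samples, fewer tests or a changed spread enter these alternatives by construction, and otherwise the cause was not tested. The counts for feeding, the muscle difference by feeding and sex were 0 in each alternative run, the block included, which says nothing about stability, since differences of the size seen in most members are too small to pass with 8 animals. Scaling moved array medians by at most 0.076. Of single genes, ATP5D for the muscle difference by feeding turned from 0.22 to -0.011 with the actin covariate, and ATP5G1 between the muscles (-0.012, not called) ranged from -0.051 to 0.037 when 1 animal was left out, above 0 without animal 1 (0.0014), 4 (0.012) or 7 (0.037); the cause was not tested. Members near the top of the scale may have compressed differences.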
